A study of Mus musculus with 4 samples.

Results

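The nuclear genes of respiratory complexes II, III and V were measured in single cells of the mouse hippocampus after 2VO, in which both common carotid arteries are occluded for a time, or after sham surgery. The group was fixed by gene symbol, without a cutoff on any measured value, and it held 31 of the 31053 genes listed. It was chosen with earlier results of these data known. It comprised 4 subunits of complex II (*Sdha*, *Sdhb*, *Sdhc* and *Sdhd*), 9 subunits of complex III (*Uqcrc1*, *Uqcrc2*, *Uqcrfs1*, *Cyc1*, *Uqcrb*, *Uqcrh*, *Uqcrq*, *Uqcr10* and *Uqcr11*), the complex III assembly factor *Uqcc2*, the electron carrier *Cycs*, and 16 genes of complex V. Of the complex V genes, 6 belong to the F1 head or act on it (*Atp5a1*, *Atp5b*, *Atp5c1*, *Atp5d*, *Atp5e* and the inhibitor *Atpif1*), and 10 belong to the membrane part Fo and the stalk (*Atp5f1*, *Atp5g1*, *Atp5g2*, *Atp5g3*, *Atp5h*, *Atp5j*, *Atp5j2*, *Atp5k*, *Atp5l* and *Atp5o*).

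Each library came from the whole hippocampus of 1 C57BL/6 mouse, aged 12 weeks in the labels. In the 2VO mouse the carotids were clamped for 50 min and the tissue was taken 7 days after surgery, and in the sham mice the clamps were released at once. No transgene or deletion was carried by any group. The libraries used were 2VO 1, sham 1 and sham 2. A second 2VO library was not analysed here. The 2VO group is therefore 1 mouse, each test has 1 residual degree of freedom, and every p-value below assumes that 2VO mice vary as the 2 sham mice do.

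Complex II is succinate dehydrogenase, which takes electrons from succinate in the citric acid cycle and hands them to ubiquinone, and all of its subunits are encoded in the nucleus. Complex III takes the electrons from ubiquinol, gives them to cytochrome c, the small protein encoded by *Cycs*, and moves protons across the inner mitochondrial membrane. Complex V, the ATP synthase, lets the protons flow back through a ring of subunit c in Fo and uses the rotation to make ATP in the F1 head. Complexes III and V also hold subunits encoded by mitochondrial DNA (*mt-Cytb*, *mt-Atp6* and *mt-Atp8*), so each of them is built from the transcripts of both genomes. The chain needs oxygen, which occlusion of the carotids withdraws for a time, and the choroid plexus epithelium, which secretes cerebrospinal fluid, is rich in mitochondria.

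Cells were kept with at least 650 detected genes, which left 3912 cells in 2VO 1, 5109 in sham 1 and 5126 in sham 2. The 2VO library was shallower, with 17681002 UMIs (unique molecular identifiers, 1 per captured transcript) against 64667950 in sham 1 and 39017426 in sham 2, and the median cell held 2311 UMIs in 2VO 1, against 8191 in sham 1 and 5249 in sham 2. Mitochondrially encoded transcripts took 5.89% of the UMIs in 2VO 1, against 3.38% in sham 1 and 4.09% in sham 2. Between 16 and 19 barcodes of a library also occurred in another library. Clusters were named from fixed marker lists, and 17 classes with at least 10 cells in every library were tested, among them oligodendrocyte precursors (OPCs, 418 cells in 2VO 1, 514 and 285 in the shams), choroid plexus epithelial cells (CPECs, 465 against 591 and 317), oligodendrocytes (OLGs, 808 against 1095 and 817), endothelial cells (ECs, 1190 against 1026 and 1603) and neuronal precursors (NPCs, 31 against 128 and 63). The other named classes were astrocytes (ASTs), glutamatergic neurons (GLUTNs), Cajal-Retzius neurons, committed OPCs, dividing cells, microglia, macrophages, pericytes (PERs), vascular smooth muscle cells (VSMCs) and vascular leptomeningeal cells (VLMCs). Clusters 13 (led by *Klk6*, with oligodendrocyte markers) and 19 (led by *Meg3* and *Gad2*, with markers of several neurons) stayed unnamed. Ependymal cells and cluster 24 had too few cells in 2VO 1 to be tested.

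Nuclear genes of the 3 complexes were called lower after 2VO in 6 of the 17 classes, and in the other 11 none passed the test. A gene was called when the quasi-likelihood test of edgeR on counts summed per library gave a Benjamini-Hochberg adjusted p under 0.05 over all genes of the class and the fold was over 1.5. Of 524 pairs of a member and a class that could be tested, 470 had a log2 fold change (2VO over sham) below 0, 437 lay below both sham libraries and 34 lay above both. Over all 147422 pairs of a gene and a class, 51.3% were below 0, 42.1% lay below both shams and 40.5% above both. There were 76 calls, all lower in 2VO, and none higher. All 31 members were tested in every class but macrophages, where 28 were. The calls covered 29 of the 31 genes at least once, and *Sdha* and *Sdhc* of complex II were called in no class.

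The 6 classes with calls differed widely in how many members they held. In OPCs 29 members were called lower, where 20.2% of all genes tested were called lower. In CPECs 17 were, against 5.94% of all genes, and in NPCs 13 were, against 6.76%. Cluster 13 had 12 members called lower, against 3.94% of all genes, and committed OPCs had 4, against 6.35%. VSMCs had 1 member called lower, against 0.319% of all genes. The OPC count is thus set in a class where many genes of every kind were called, and the share in committed OPCs was of the same order as that of all genes.

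**Figure D1:**
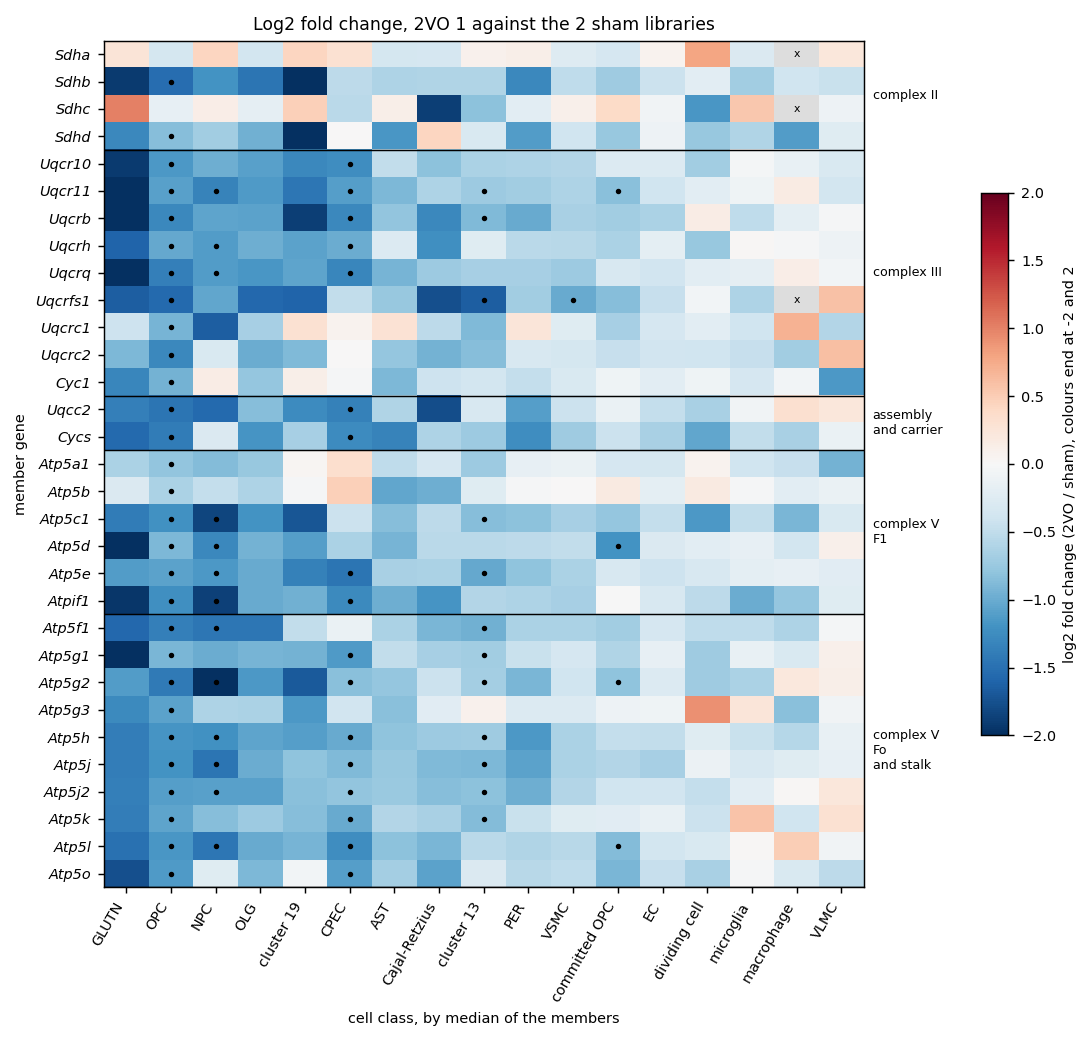
Log2 fold change (2VO over sham) of the 31 members, in rows by complex, in the 17 tested classes, in columns. A dot marks a gene called lower and an x a gene not tested. Blue runs through nearly every class, the 29 dots in OPCs fill the column but for *Sdha* and *Sdhc*, and the rows of these 2 genes hold blue and red cells.

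In the other 11 classes no member was called, and in several of them few or no genes of any kind were. The share of all genes called in either direction was 0% in OLGs, PERs and cluster 19, 0.019% in ASTs, 0.0506% in dividing cells, 0.897% in Cajal-Retzius neurons, 1.06% in VLMCs, 1.6% in GLUTNs, 1.83% in microglia, 2.1% in ECs and 5.7% in macrophages. At an unadjusted p under 0.05, edgeR had 29 members in OLGs, 24 in ASTs, 20 in GLUTNs, 13 in Cajal-Retzius neurons, 9 in ECs, 9 in PERs, 5 in cluster 19, 4 in microglia, 3 in dividing cells, 2 in VLMCs and 0 in macrophages. DESeq2 on the same sums called 16 members in OLGs (5.97% of all genes), 3 in GLUTNs (0.374% of all genes) and 0 in the others. Over all genes, edgeR reached an unadjusted p under 0.05 for 3741 in OLGs, 1004 in PERs and 461 in cluster 19, and DESeq2 called 720, 1 and 1 in these classes.

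The median log2 fold change of the members was below 0 in all 17 classes and below the median of all genes tested in each of them, which ran between -0.11 and 0.01. Without sham 2 the members' median was 0.04 in macrophages and 0.01 in VLMCs, and in VLMCs it was then above that of all genes (a difference of 0.02). Without the filter on low counts it was above that of all genes in dividing cells (by 0.29) and VLMCs (by 0.03). It was -1.39 in GLUTNs, -1.14 in OPCs, -1.08 in NPCs, -0.99 in OLGs, -0.97 in cluster 19, -0.84 in CPECs and -0.76 in ASTs. It was smallest in size in VLMCs (-0.10), macrophages (-0.27), microglia (-0.29), dividing cells (-0.32) and ECs (-0.35). A class with a large median was not always one with calls, and the class with the largest, GLUTNs, had 15 cells in 2VO 1 and no call.

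Promoters, from 250 bases before to 50 after the start, were taken from RefSeq on GRCm38.p6 and could be matched for 25 of the 31 members. NRF1 is a factor known to bind promoters of respiratory chain genes, and its letters GCGCANGCG were searched on both strands. They occurred in 14 of the 25 (56.0%), against 7.03% of 27025 genes with a promoter and 16.1% of those tested in OPCs. The windows below hold them for members the results turn on, with the motif or its reverse complement in capitals, 5′ to 3′ on the strand of the gene.
*Sdha*, called in no class, 1 of 3 matches, chr13:74350231-74350260, minus strand: gcgactcggtGCGCAAGCGcagtctgtcgc
*Sdhd*, called in OPCs, chr9:50603909-50603938, minus strand: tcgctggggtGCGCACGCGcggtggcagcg
*Uqcr11*, called in 5 classes, chr10:80406807-80406836, minus strand: atcgccttcaCGCATGCGCtatacgtctgc
*Uqcc2*, called in OPCs and CPECs, chr17:27133920-27133949, minus strand: gcgccttagtGCGCACGCGccctctgcggt
*Cycs*, called in OPCs and CPECs, chr6:50566611-50566640, minus strand: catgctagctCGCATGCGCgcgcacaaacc
*Atp5c1*, called in 3 classes, chr2:10080430-10080459, minus strand: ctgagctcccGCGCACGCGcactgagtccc
*Atp5g2*, called in 5 classes, chr15:102671070-102671099, minus strand: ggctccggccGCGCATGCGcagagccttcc
*Atpif1*, called in 3 classes, chr4:132535536-132535565, minus strand: tgaccgttctGCGCAAGCGcagcctcacgt

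The letters were present in genes that changed and in *Sdha*, which did not pass the test. Members with them had a median log2 fold change of -1.15 in OPCs, and members with a promoter but without them -1.10, and in CPECs the medians were -1.005 and -0.79. The GABPA letters CCGGAAGTG were found in 1 of the 25 promoters, that of *Uqcrh* (4.0%). They occurred in 2.25% of all genes with a promoter and in 5.12% of those tested in OPCs. The YY1 letters AAGATGGCG were found in 2, those of *Atp5j* and *Atp5j2* (8.0%). Of all genes with a promoter 1.64% held them, and of those tested in OPCs 3.8%. In these windows the letters are:
*Uqcrh*, GABPA, reverse complement, chr4:116075063-116075092, minus strand: gagtatgccgCACTTCCGGccaggtcgccg
*Atp5j*, YY1, chr16:84835045-84835074, minus strand: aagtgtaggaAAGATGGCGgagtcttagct

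A match is a description of the letters and not evidence of a bound site.

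OPCs, the precursors from which oligodendrocytes form, had the most calls. Every member was below both sham libraries there, as 43.8% of all genes tested were, and all but *Sdha* and *Sdhc* were called. The group comprised 2 of 4 complex II genes, 9 of 9 complex III genes, *Uqcc2* and *Cycs*, 6 of 6 F1 genes and 10 of 10 genes of Fo and the stalk. Without the filter on low counts edgeR called 0 of 17417 genes in OPCs, members included. The values below are CPM, counts relative to the size of the library sum and scaled by TMM within the class.

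In complex III, *Uqcrfs1*, the Rieske iron-sulfur protein, had 78.7 CPM in 2VO 1, against 233 in sham 1 and 230 in sham 2. Its log2 fold change was -1.56 ± 0.21 (SE), with an edgeR adjusted p of 0.000153. *Uqcrc2*, a core protein of the complex, had 87.4 CPM in 2VO 1, against 213 and 212 in the shams, a log2 fold change of -1.28 ± 0.20. The sham libraries lay close together for both genes and far above the 2VO library. *Uqcrq* and *Uqcrb*, small subunits that bind near the ubiquinone sites or stabilise the complex, had 189 and 231 CPM in 2VO 1, against 493 and 606 in sham 1 and 480 and 524 in sham 2. *Uqcrc1*, the other core protein, and *Cyc1*, the subunit with cytochrome c1 haem, had the smallest changes of the complex, both -0.94. Their values were 90.7 and 121 CPM in 2VO 1, against 183 and 236 in sham 1 and 163 and 230 in sham 2. The remaining small subunits *Uqcr10*, *Uqcr11* and *Uqcrh* changed by -1.15, -1.08 and -1.02. *Uqcc2*, which is needed to translate and assemble cytochrome b, had 135 CPM in 2VO 1, against 362 and 382 in the shams, and *Cycs* had 72.7 CPM in 2VO 1, against 199 and 184. Their log2 fold changes were -1.46 ± 0.20 and -1.40 ± 0.21, among the largest of the 31.

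In complex V of OPCs the largest change was in *Atp5g2*, one of the genes for subunit c, with 288 CPM in 2VO 1, against 767 in sham 1 and 777 in sham 2. Its log2 fold change was -1.42 ± 0.19 (edgeR adjusted p = 0.000141, the smallest of the 31 in this class). *Atp5f1*, subunit b of the peripheral stalk, had 203 CPM in 2VO 1, against 535 and 510, a change of -1.37 ± 0.19. *Atp5c1*, the gamma subunit that turns inside the head, had 189 CPM in 2VO 1, against 429 and 447, a change of -1.21 ± 0.19. *Atpif1*, which inhibits ATP hydrolysis by the enzyme when the proton gradient fails, had 231 CPM in 2VO 1, against 563 and 520, a change of -1.23 ± 0.19. The subunits that form the catalytic hexamer moved least among the complex V genes. *Atp5b* (beta) had 303 CPM in 2VO 1, against 497 and 445, a change of -0.64 ± 0.18 with an edgeR adjusted p of 0.0145. *Atp5a1* (alpha) had 234 CPM in 2VO 1, against 420 and 390, a change of -0.79 ± 0.19. All other complex V genes lay between -1.19 (*Atp5j*) and -0.90 (*Atp5d*).

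Complex II was uneven in OPCs. *Sdhb*, its iron-sulfur subunit, fell nearly as far as *Uqcrfs1*, with 104 CPM in 2VO 1, against 318 and 278 in the shams (-1.52 ± 0.21, edgeR adjusted p = 0.00018). *Sdhd*, 1 of the membrane anchors, had 62.0 CPM in 2VO 1, against 115 and 109, a change of -0.85 ± 0.21. *Sdha*, the flavoprotein that oxidises succinate, had 109 CPM in 2VO 1, against 123 and 155, a difference of -0.34 ± 0.21 with an edgeR adjusted p of 0.224. *Sdhc*, the other anchor, had 57.3 CPM in 2VO 1, against 64.5 and 64.2 (-0.17 ± 0.22, edgeR adjusted p = 0.592). Both *Sdha* and *Sdhc* lay below both shams, by less than the fold needed for a call.

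**Figure D2:**
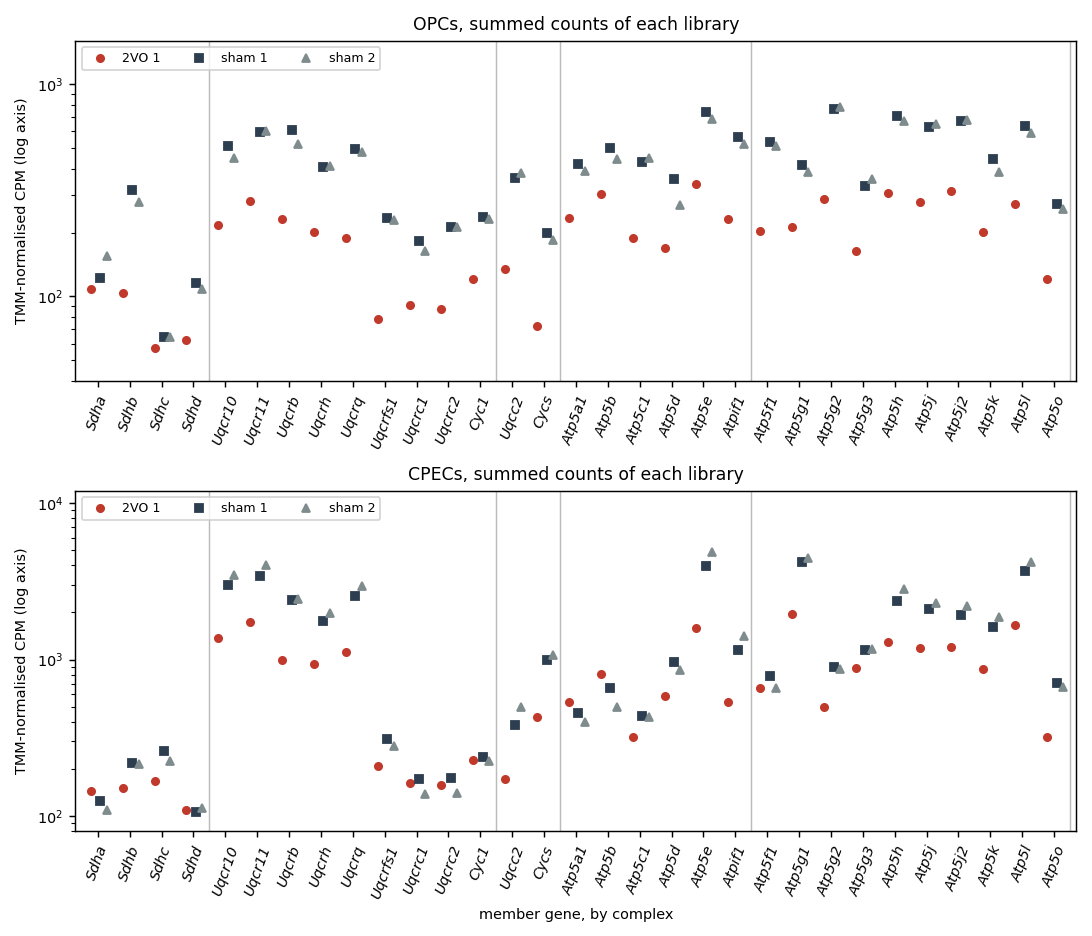
CPM (log axis) of each of the 31 members in OPCs and in CPECs, with 1 point per library, 2VO 1 beside sham 1 and sham 2. In OPCs every 2VO point lies below both sham points, and in CPECs the 2VO points of *Sdha*, *Atp5a1* and *Atp5b* lie above them.

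The OPC class held 2 clusters in unequal shares. Cluster 1 had 44 cells in 2VO 1, against 458 in sham 1 and 234 in sham 2, while cluster 2 had 374 in 2VO 1, against 56 and 51. Within cluster 1 the median log2 fold change of the members was -0.20, with *Uqcrq* at -0.49, *Cycs* at -0.42 and *Atp5a1* at 0.12, where the median of all genes was -0.05. Within cluster 2 it was -1.18, with *Uqcrfs1* at -1.84, *Cycs* at -1.74 and *Sdhb* at -1.73, where the median of all genes was 0.09. These within-cluster values carry no test. The larger median was that of the cluster with most of the 2VO cells and few sham cells. The median OPC held 2698 UMIs in 2VO 1, against 7029 and 6876 in the shams, and 3.83% mitochondrially encoded UMIs, against 1.54% and 2.02%. Markers of other classes were also higher in the 2VO OPCs. The 7 CPEC markers summed to 3236 CPM in 2VO 1, against 1175 and 1537, the 7 EC markers to 1383 CPM, against 270 and 521, and the 5 erythroid markers to 769 CPM, against 2 and 27. The 7 OPC markers summed to 11211 CPM in 2VO 1, against 8793 and 8537. The part of the cluster shares, of depth and of these transcripts in the OPC changes was not tested.

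CPECs had the highest summed level of the members, 2.71% of all UMIs in 2VO 1, against 4.13% in sham 1 and 4.21% in sham 2. Their calls were confined, among the members, to 5 small subunits of complex III, *Uqcc2*, *Cycs*, 2 F1 genes and 8 genes of Fo and the stalk, and no complex II gene was called. *Atp5e*, the epsilon subunit of the central stalk, had 1599 CPM in 2VO 1, against 3957 in sham 1 and 4891 in sham 2. Its log2 fold change was -1.47 ± 0.24 with an edgeR adjusted p of 0.00106, the smallest of the members in this class. *Uqcrb* had 990 CPM in 2VO 1, against 2409 and 2422, and *Uqcrq* had 1119 CPM, against 2566 and 2969, changes of -1.29 ± 0.22 and -1.31 ± 0.23. *Uqcr10*, *Uqcr11* and *Uqcrh* changed by -1.25, -1.10 and -0.999. *Uqcc2* had 172 CPM in 2VO 1, against 380 and 497, and *Cycs* had 428 CPM, against 992 and 1062. *Atp5l*, subunit g of Fo, had 1674 CPM in 2VO 1, against 3688 and 4209, a change of -1.24 ± 0.23. *Atpif1* had 534 CPM in 2VO 1, against 1152 and 1420, a change of -1.27 ± 0.23. *Atp5g1* had 1964 CPM in 2VO 1, against 4227 and 4429, a change of -1.14 ± 0.22. The 2VO value of each called gene was below both shams.

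Several larger subunits of the same complexes stayed near the sham values in CPECs. Others did not. *Atp5o*, with a coding length of 639 bases, was among the genes called lower. *Uqcrfs1*, *Sdhb* and *Atp5c1* lay below both shams without a call. *Uqcrc1* had 162 CPM in 2VO 1, against 172 and 137, *Uqcrc2* had 158, against 175 and 140, and *Cyc1* had 229, against 239 and 224, so that each 2VO value lay between the shams. *Atp5b* had 810 CPM in 2VO 1, against 661 and 500, a difference of 0.48 ± 0.22 with an edgeR adjusted p of 0.203. *Atp5a1* had 538 CPM in 2VO 1, against 454 and 396 (0.34 ± 0.21, edgeR adjusted p = 0.367), and *Sdha* had 144 CPM, against 124 and 108 (0.31 ± 0.21, edgeR adjusted p = 0.435). These 3 genes lay above both shams without passing the test. Scaling by total counts instead of TMM moved the median of all genes in CPECs to 0.36, and *Atp5b* and *Atp5a1* were then called higher (0.83 and 0.69, edgeR adjusted p = 0.0231 and 0.0428), beside 14 members called lower. Of all genes 10% were then called in either direction. The members' median minus that of all genes was -0.84 under that scaling. The CPEC markers summed to 207381 CPM in 2VO 1, against 209379 and 201274, which does not show that the class was made up alike. With finer clustering (resolution 2.0) CPECs split in unequal shares. Cluster 0 of that setting had 219 cells in 2VO 1, against 290 and 82. Cluster 1 had 158, against 50 and 60, and cluster 2 had 108, against 253 and 186. The part of these shares in the CPEC changes was not tested. The median CPEC held 6861 UMIs in 2VO 1, against 39156 and 27744, and the part of this gap in the CPEC changes was not tested by the model, and shares at matched depth are given further on.

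NPCs had 13 members called, 6 of them in Fo and the stalk, 4 in F1 and 3 in complex III. *Atpif1* had 337 CPM in 2VO 1, against 1192 in sham 1 and 1269 in sham 2 (-1.87 ± 0.26, edgeR adjusted p = 0.000114). *Atp5g2* had 196 CPM in 2VO 1, against 794 and 825 (-2.04 ± 0.30, edgeR adjusted p = 0.000217), which rests on 14 UMIs in 2VO 1. *Atp5c1* had 140 CPM in 2VO 1, from 10 UMIs, against 450 and 557, a change of -1.83 ± 0.36. *Atp5j* (coupling factor 6 of the stalk), *Atp5f1* and *Atp5l* changed by -1.46, -1.45 and -1.44, *Uqcr11*, *Uqcrh* and *Uqcrq* by -1.33, -1.12 and -1.11, and *Atp5d*, *Atp5h*, *Atp5e* and *Atp5j2* by -1.29, -1.21, -1.15 and -1.08. The 31 NPCs of 2VO 1 held less of their own markers, 6731 CPM for 7 genes against 13009 and 12875, and more of the CPEC markers, 5669 CPM against 1160 and 673. Their EC markers summed to 1874 CPM, against 103 and 25, and the part of these transcripts in the NPC changes was not tested. No member was called in NPCs with DESeq2 (0.168% of all genes were), and 2 were with finer clustering (2.43% of all genes).

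Cluster 13 and committed OPCs, both of the oligodendrocyte lineage by their markers, had smaller changes. In cluster 13 *Uqcrfs1* had 62.5 CPM in 2VO 1, from 11 UMIs, against 204 and 189 (-1.65 ± 0.34, edgeR adjusted p = 0.000309). *Atp5e* had 279 CPM in 2VO 1, against 560 and 576 (-1.03 ± 0.23, edgeR adjusted p = 0.000829), and *Atp5f1* had 256 CPM, against 509 and 491. The other calls there were *Atp5j*, *Uqcrb*, *Atp5k*, *Atp5c1*, *Atp5j2*, *Uqcr11*, *Atp5h*, *Atp5g1* and *Atp5g2*, between -0.90 and -0.68. In committed OPCs *Atp5d*, the delta subunit of the central stalk, had 200 CPM in 2VO 1, against 481 and 429 (-1.20 ± 0.31, edgeR adjusted p = 0.0028). *Atp5l* had 399 CPM in 2VO 1, against 763 and 690, *Uqcr11* had 406, against 666 and 795, and *Atp5g2* had 592, against 1086 and 984. DESeq2 called no member in either class. Scaling by total counts left 0 members called in cluster 13 (0.584% of all genes) and 2 in committed OPCs (10.7% of all genes). In VSMCs the 1 call was *Uqcrfs1*, with 120 CPM in 2VO 1, against 238 and 247 (-1.01 ± 0.29, edgeR adjusted p = 0.0498), just inside the threshold and without a call by DESeq2.

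OLGs resembled OPCs in size of change and not in calls. With doublets removed 21 members were called lower, where 12.5% of all genes were called in either direction. Without the filter on low counts 29 were, where 18.5% of all genes were called. All 31 members were below both shams, as 42.4% of all genes tested were, with *Uqcrfs1* at 65.4 CPM in 2VO 1, against 208 in sham 1 and 182 in sham 2 (-1.58 ± 0.24, edgeR adjusted p = 0.0604). *Sdhb* had 77.4 CPM in 2VO 1, against 228 and 200, and *Atp5f1* had 183, against 518 and 482, with the same adjusted p. Cluster 14 of this class had 599 cells in 2VO 1, against 17 and 41 in the shams, and the median of the members within it was -0.74, where that of all genes was 0.16. In cluster 18, with 15 cells in 2VO 1, these medians were -1.19 and -0.71, in cluster 3 -0.48 and -0.09, and in cluster 25 -0.68 and 0.00. In GLUTNs *Uqcr11* had 193 CPM in 2VO 1, against 717 and 1126 (-2.26 ± 0.76, edgeR adjusted p = 0.0933). The 15 GLUTNs of 2VO 1 were not shallower than those of the shams, with a median of 5548 UMIs, against 3393 and 4492, and the members took 0.72% of their UMIs, against 1.39% and 1.82%. In ASTs *Atp5b*, which changed little in CPECs, had 292 CPM in 2VO 1, against 588 and 612 (-1.04 ± 0.23, edgeR adjusted p = 0.187). In Cajal-Retzius neurons *Atpif1* had 439 CPM in 2VO 1, against 983 and 1016 (-1.18 ± 0.30, edgeR adjusted p = 0.0634), and in microglia it had 154, against 319 and 293 (-0.99 ± 0.23, edgeR adjusted p = 0.0873). In ECs *Cycs* had 84.98 CPM in 2VO 1, against 136 and 130 (-0.64 ± 0.17, edgeR adjusted p = 0.0983). In PERs it had 81.9 CPM, against 192 and 195 (-1.24 ± 0.29, edgeR adjusted p = 0.443).

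In some classes the members' share of summed UMIs and its median over single cells went different ways. Cluster 19, with a median log2 fold change of -0.97, was among them. In microglia the members took 0.59% of UMIs in 2VO 1, between the shams at 0.65% and 0.57%. In VLMCs they took 0.83% in 2VO 1, against 0.94% and 0.89%, but the median over cells was 0.86% in 2VO 1, against 0.69% and 0.65%. In cluster 19 the summed share was 0.57% in 2VO 1, against 0.88% and 0.84%, and the median over cells was 0.50%, against 0.33% and 0.25%. Sham 2 cells of cluster 19 held 23.2% transcripts associated with ribosomal RNA.

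By complex, the median was nearest to 0 for complex II in OPCs, CPECs, NPCs, OLGs and GLUTNs, and in 5 further classes. In OPCs the median log2 fold change was -1.43 for *Uqcc2* and *Cycs*, -1.15 for complex III, -1.15 for Fo and stalk, -0.98 for F1 and -0.60 for complex II. In CPECs the same order of groups gave -1.31, -0.999, -0.94, -0.53 and -0.25. In GLUTNs complex III had a median of -1.65, Fo and stalk -1.38, F1 -1.26 and complex II -0.51, and in NPCs these were -1.05, -1.15, -1.22 and -0.28. OLGs had -1.08 for complex III, -0.999 for Fo and stalk, -0.97 for F1 and -0.66 for complex II. In PERs, VLMCs, cluster 19, committed OPCs, dividing cells, macrophages and microglia another group was nearer to 0. Complex II has 4 genes here, so its median is the mean of the middle pair. Scaled by total counts, the complex II median was 0.10 in CPECs and 0.09 in NPCs. The differences between complexes were not tested.

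**Figure D3:**
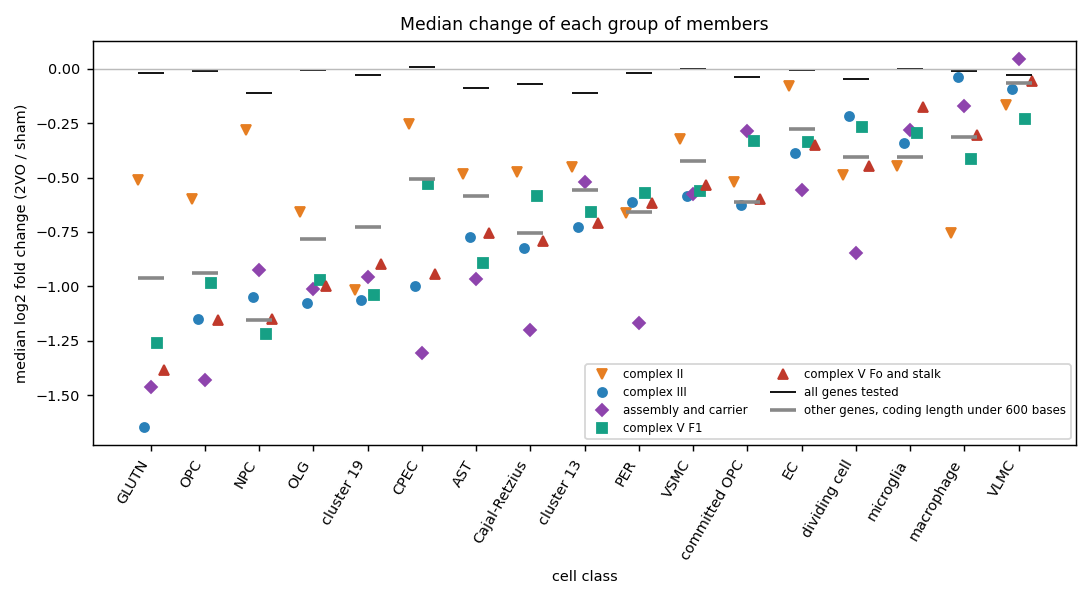
Median log2 fold change (2VO over sham) of the members of each complex in each tested class, beside the median of all genes tested and of other genes with a coding length under 600 bases. Complex II lies nearest to all genes in OPCs, CPECs, NPCs, OLGs and GLUTNs, and the other genes of short coding length lie below all genes in these classes too.

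Within the members, *Sdha* and *Sdhc* stood apart by their direction over classes. *Sdha* was below 0 in 7 of 16 classes, with a median of 0.08 and a range between -0.36 and 0.80, and *Sdhc* was below 0 in 9 of 16. Against that, 10 members were below 0 in all 17 classes: *Sdhb*, *Uqcr10*, *Cycs*, *Atpif1*, *Atp5c1*, *Atp5e*, *Atp5f1*, *Atp5h*, *Atp5j* and *Atp5o*. *Atp5c1*, *Atp5e*, *Atp5f1* and *Atp5h* lay below both shams in all 17. *Atp5b* was below 0 in 13 classes, between -1.04 in ASTs and 0.48 in CPECs, and *Cyc1* in 15, between -1.31 in GLUTNs and 0.14 in NPCs. *Cycs* ran between -1.55 in GLUTNs and -0.13 in VLMCs, and *Atpif1* between -1.94 in GLUTNs and -0.01 in committed OPCs. The genes called in most classes were *Atp5g2* and *Uqcr11*, each in 5.

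Levels between classes were set on 1 scale over all sums, as a description. In every library CPECs had the highest value of each member, except *Sdha* in sham 2. *Cycs* had 861 CPM in CPECs of 2VO 1, against 2021 and 2078 in the shams, followed by VSMCs with 332 CPM, against 675 and 488. *Atp5b* had 1630 CPM in CPECs of 2VO 1, against 1347 and 979, and 866 in VSMCs, against 977 and 854. *Cyc1* had 460 CPM in CPECs, against 486 and 439, and 246 in VSMCs, against 349 and 295. *Sdha* had 289 CPM in CPECs, against 253 and 212, and 166 in VSMCs, against 228 and 194, where the libraries of both classes overlap, and in sham 2 ASTs had the highest value of *Sdha*, 218 CPM. *Atpif1* had 1075 CPM in CPECs, against 2346 and 2779. In VSMCs it had 585 CPM in 2VO 1, against 996 and 960, in NPCs 241, against 1000 and 1017, and in GLUTNs 169, against 566 and 1043, so that the sham values of these 3 classes overlap or lie close together. The untested cluster 24 had 1565 and 1465 CPM in the shams, and 2 UMIs in 2VO 1.

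*Atp5g1*, *Atp5g2* and *Atp5g3* encode precursors with the same mature subunit c, so their shares say which gene supplied the transcripts. The intervals are exact Clopper-Pearson 95% intervals and cover counting error only. In CPECs *Atp5g1* made up 58.7% of the 3 (58.2 to 59.3) in 2VO 1, against 67.4% (67.1 to 67.6) in sham 1 and 68.5% (68.1 to 68.9) in sham 2. *Atp5g3* made up 26.5% (26.0 to 27.0) in 2VO 1, against 18.4% and 18.0%, and *Atp5g2* 14.8%, against 14.2% and 13.5%. *Atp5g3* was also the 1 subunit c gene not called in CPECs, with 886 CPM in 2VO 1, against 1156 and 1165 (-0.39, edgeR adjusted p = 0.302). In OPCs *Atp5g2* led in every library, with 43.4% (40.3 to 46.6) in 2VO 1, against 50.7% and 51.1%, and *Atp5g1* made up 31.96%, against 27.4% and 25.4%. In GLUTNs *Atp5g1* had 29.5% (19.7 to 40.9) in 2VO 1, against 44.3% and 46.0%. The last 300 bases of the *Atp5g2* transcript share 98.5% of their 31-base words with the pseudogene *Gm10175*, and those of *Atp5h* and *Atp5l* share 54.8% and 53.3% with *Gm10250* and *Gm4853*, so their counts are less certain. *Atp5o* has a second identifier in the files, a readthrough transcript that was kept apart and out of all counts.

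Whether the 2VO change of a member differed between classes was tested over all classes together, with the library as a term. No member passed (0 of 31, edgeR F test), where 1.8% of all 15338 genes did. At an unadjusted p under 0.05 there were 12 members, and the smallest adjusted p was 0.150, for *Atp5k*, subunit e of Fo. Of 527 tests of 1 class against the mean of the others, 0 passed and 69 had an unadjusted p under 0.05. The smallest adjusted p was 0.0834, for *Atp5k* in microglia (a difference of 1.27 ± 0.31). A member called in OPCs and not in another class is thus not shown to differ between them.

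Inside CPECs the change went with the length of the coding sequence. The 20 members with a coding length under 600 bases had a median log2 fold change of -1.05, and the 11 longer members -0.02, with a Spearman correlation of 0.80 between change and coding length over the 31 genes, which share libraries and depth. In OPCs the medians were -1.12 and -1.14 and the correlation 0.20. Other genes with a coding length under 600 bases had a median of -0.51 in CPECs (1679 genes) and -0.94 in OPCs (1529 genes), and longer genes had 0.07 and 0.09. In NPCs, OLGs and ECs the other short genes had medians of -1.15, -0.78 and -0.28. The short members together took 2.27% of CPEC UMIs in 2VO 1, against 3.72% and 3.88%, and the long members 0.435%, against 0.409% and 0.332%. In cells with 2000 to 6000 UMIs the short members took 1.97% in 2VO 1, which lay between the shams at 1.74% and 2.01%, and the long members 0.401%, against 0.303% and 0.272%. In CPECs of 2000 to 4000 UMIs the short members took 2.06% in 2VO 1, against 2.31% and 2.83%. In those of 4000 to 8000 they took 2.02%, against 1.69% and 0.98%. The values show that short genes outside these complexes were lower too, and the part of transcript length in the members' change was not tested.

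**Figure D4:**
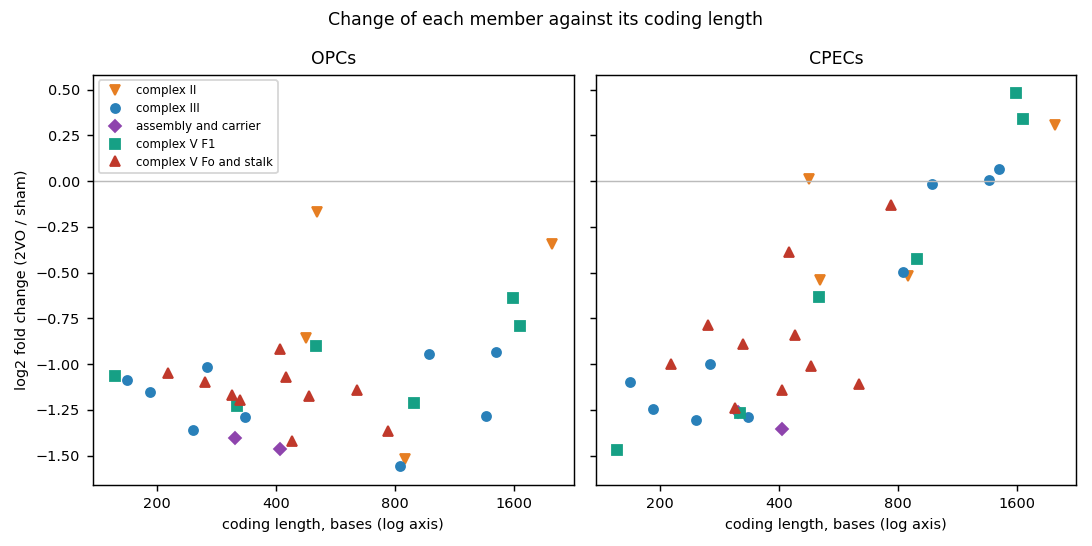
Log2 fold change (2VO over sham) of the 31 members against coding length in bases (log axis), in OPCs and in CPECs, with 1 point per gene. In CPECs the 3 longest genes (*Sdha*, *Atp5a1* and *Atp5b*) lie above 0 and the shortest, *Atp5e*, lowest, and in OPCs short and long genes overlap in height.

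Depth was matched by taking only cells with 2000 to 6000 UMIs, a range chosen after the data had been seen. In OPCs the median share of a cell's UMIs from the members was then 0.48% in 2VO 1 (259 cells), against 1.24% in sham 1 (112 cells) and 1.05% in sham 2 (86 cells), close to the 0.50%, 1.24% and 1.14% of all OPCs. In CPECs it was 2.49% in 2VO 1 (121 cells), against 2.75% (54 cells) and 2.64% (43 cells), where all CPECs had 2.59%, against 3.84% and 3.75%. NPCs had 0.59% in 2VO 1 (10 cells), against 1.21% and 1.13%, OLGs 0.58%, against 0.65% and 0.91%, and ECs 0.85%, against 1.00% and 0.92%. ASTs had 0.54% in 2VO 1, against 0.72% and 0.75% (all cells 0.55%, against 1.18% and 1.16%), and cluster 13 had 0.56%, against 0.69% and 0.76% (all cells 0.58%, against 0.94% and 0.96%). The gap to both shams was thus smaller within the range in CPECs, ASTs, cluster 13, VSMCs, OLGs, ECs, PERs and NPCs. In OPCs, committed OPCs and GLUTNs it was smaller against sham 2 and larger against sham 1. In Cajal-Retzius neurons it was larger against both shams. They had 0.44% in 2VO 1, against 1.30% and 1.11% (all cells 0.53%, against 1.25% and 1.13%). In dividing cells 2VO 1 then lay between the shams (1.42%, against 1.65% and 1.18%). The range matched depth in CPECs (a median of 3001 UMIs in 2VO 1, against 3179 and 3122) and not in OPCs (2877, against 5273 and 4717.5) or NPCs (2518.5, against 4703.5 and 5090). Nor did it in OLGs (2926, against 3584 and 4546), VSMCs (3687, against 5364 and 4865), committed OPCs (2598.5, against 3868 and 4861.5) or GLUTNs (5170, against 3242 and 2968). Cajal-Retzius neurons were not matched either (2295.5, against 5003 and 4539). In finer bins, OPCs of 2000 to 4000 UMIs had 0.46% in 2VO 1 (202 cells), against 0.67% in sham 2 (30 cells), with under 20 cells in sham 1, and OPCs of 4000 to 8000 had 0.71% (89 cells), against 1.27% and 1.20% (334 and 179 cells). The order turned with depth in CPECs. Cells of 2000 to 4000 UMIs had 2.56% in 2VO 1, against 3.17% and 3.38%, cells of 4000 to 8000 had 2.64%, against 1.19% and 0.96%, cells of 8000 to 16000 had 1.53%, against 1.56% and 1.97%, and cells of 32000 to 64000 had 2.94%, against 3.98% and 4.46%. The CPEC shares also went down and up again with depth within a sham library, so that no depth stands for the whole class.

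**Figure D5:**
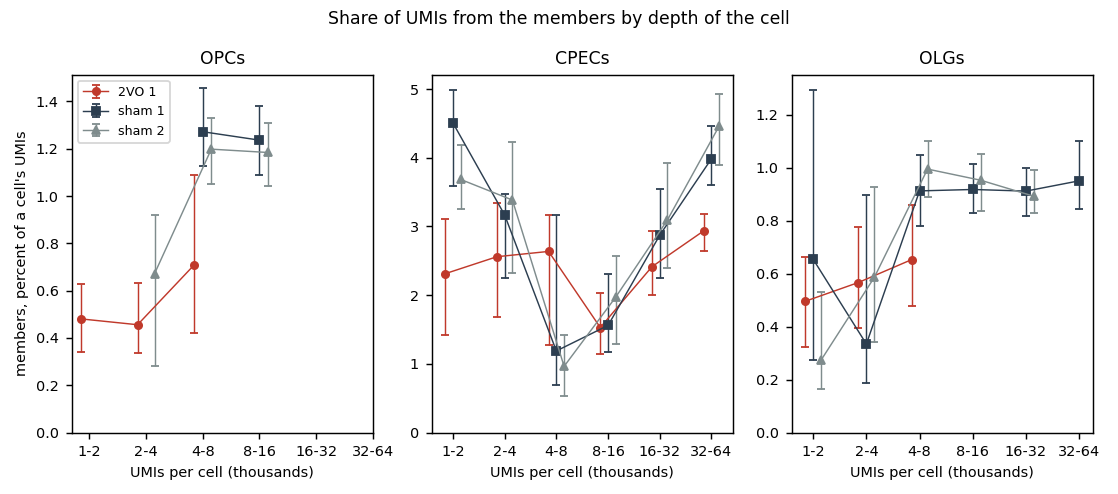
Percent of a cell's UMIs that came from the 31 members, by the number of UMIs in the cell (bins that double in width), in OPCs, CPECs and OLGs, for bins with at least 20 cells of a library. Points are medians and bars run over the middle quartiles. In OPCs the 2VO point at 4000 to 8000 UMIs, the bin all libraries fill, lies below both shams (0.71%, against 1.27% and 1.20%), with a narrower gap to sham 2 at 2000 to 4000 (0.46%, against 0.67%), and in CPECs and OLGs the libraries cross.

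The other genes of the chain were read from lists chosen with earlier results of these data known. Nuclear complex I genes had a median log2 fold change of -1.21 in OPCs, with 34 of 36 called lower, and -0.82 in CPECs, with 24 of 36. Nuclear complex IV genes had -1.12 in OPCs (11 of 14 lower) and -1.18 in CPECs (12 of 14 lower). The 6 carriers and channels that exchange ATP and phosphate with the cytosol were all called lower in OPCs, with *Slc25a5* at -1.71 and *Vdac2* at -1.51, and had a median of -1.39. Of 13 citric acid cycle genes beside succinate dehydrogenase, 6 were called lower in OPCs (median -0.57), among them *Mdh2* at -1.39 and *Idh3a* at -1.48, and 0 in CPECs (median -0.08). Of 14 further genes that assemble or belong to complexes II, III and V, 7 were called lower in OPCs, led by the succinate dehydrogenase assembly factors *Sdhaf1* (-1.82) and *Sdhaf4* (-1.73) and by *Tmem70* (-1.68), which assembles the ATP synthase, and 4 in CPECs. Of 7 regulators of mitochondrial genes 1 was called lower in OPCs, *Tfam* at -1.12. Of all genes tested, 20.2% were called lower in OPCs and 5.94% in CPECs.

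The mitochondrially encoded genes went the other way in OPCs. Of 13, 12 were called higher there, with a median of 0.90, where 12.7% of all genes were called higher. *mt-Atp8*, a complex V subunit, had 1171 CPM in 2VO 1, against 288 and 504 in the shams (1.57, edgeR adjusted p = 0.000258), and *mt-Atp6* had a log2 fold change of 0.88 (edgeR adjusted p = 0.00161). *mt-Cytb*, the mitochondrial subunit of complex III, had 0.51 (edgeR adjusted p = 0.0290), under the fold needed for a call. The list was also called higher for 13 genes in committed OPCs (median 1.46), against 5.08% of all genes, 11 in NPCs (1.33), against 2.44%, 11 in cluster 13 (0.70), against 2.42%, and 6 in VSMCs (0.93), against 1.71%. It had 2 calls in Cajal-Retzius neurons, 1 each in CPECs, ECs and microglia, and none in the other classes, OLGs (1.00) among them. Of all genes, 0.897% were called in either direction in Cajal-Retzius neurons, 2.1% in ECs and 1.83% in microglia, and 315 of 12802 were called higher in CPECs. In CPECs its median was -0.03, and *mt-Atp6* and *mt-Cytb* were at 0.02 and -0.14. The ribosomal protein genes, which have short coding sequences and no part in the chain, had medians of -0.97 in OPCs (73 of 79 lower), -0.71 in CPECs (39 of 79 lower) and -1.65 in NPCs (73 of 79 lower). Of 14 genes known to respond to dissociation, 4 were called higher in OPCs (*Zfp36*, *Hspa1a*, *Hspa1b* and *Egr1*), 6 in cluster 13, 4 in committed OPCs, where 1 was lower, 4 in GLUTNs (median 1.85) and 2 in VSMCs. There was 1 higher in CPECs and in Cajal-Retzius neurons, 1 in each direction in NPCs and 3 lower in microglia, and none in the other classes. The shares of all genes called higher in OPCs, cluster 13, committed OPCs, VSMCs and NPCs are those given above. In GLUTNs 1.6% of all genes were called in either direction, and in NPCs 6.76% were called lower. The part of this response in the members' change was not tested.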

How the data were processed

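UMI counts per gene and barcode were used as deposited by the authors, whose processing notes name Cell Ranger, Seurat 3.2.2 and mm10 (GRCm38). That they are raw was read from their values, all of them whole and their totals unequal between libraries, and any filter before deposit is not given in the sources used here. The members and lists were chosen with earlier results of these data known.

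Cells with at least 650 genes were scaled to 10000 counts and clustered with scanpy 1.11.5 (2000 variable genes without members, listed genes, mt- and ribosomal protein genes, 30 components, 15 neighbours, Leiden resolution 1.0). A cluster was named when at least 3 fixed markers were detected (10% of cells, 2 times the other cells), under a rule set after the clusters were seen. Doublets (Scrublet score of 0.25 or more) numbered 49 in 2VO 1, 98 in sham 1 and 119 in sham 2 and were kept.

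Tests were run on the raw counts of each class, added up within a library, with edgeR 4.0.16 in R 4.3.3 (quasi-likelihood, TMM, filterByExpr, Benjamini-Hochberg adjustment within a class). On simulated data with 200 changed genes, 54% of 2-fold and 100% of 4-fold changes were recovered in OPCs, with 6 false calls, 51% and 100% in CPECs, with 7, and 4% and 50% in NPCs, with 2. The simulation gave all genes and classes the same fixed dispersion and changed only genes at or above the median expected count. In OLGs it recovered 48% and 95%, whereas the real test called 0 of 12052 genes. These percentages are therefore not the power of the tests on the real data. Values are named for all 31 members by counts, and per library for genes called or of smallest p in a class. *Sdha*, *Cyc1*, *Cycs*, *Atp5b*, *Atpif1* and the subunit c genes are described whatever their p. Alternatives were DESeq2 1.42.0, total counts without TMM, no filter, 200 genes per barcode, doublets removed, Leiden resolution 2.0 and leaving out each sham.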

Additional observations from a re-analysis of the deposited data

How the results depend on the processing

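The median log2 fold change over all members was below 0 in each class under each alternative that gave it a value, except without sham 2 in macrophages and VLMCs, and what moved was how many members passed the test. CPECs had 17 or 18 members called lower under each alternative with a test but total counts (14 lower and 2 higher), and OPCs 26 to 29 but for no filter on low counts, with 0 calls. Of all genes, these alternatives called 4.91% to 10% in CPECs and 10.6% to 33.6% in OPCs, but for 0% in OPCs without the filter. Percentages in brackets below are shares of all genes called in either direction. With DESeq2 the count was 0 in NPCs (0.168%), cluster 13 (0.0504%), committed OPCs (0.954%) and VSMCs (0.0341%), 16 in OLGs (5.97%) and 3 in GLUTNs (0.374%). With total counts and no TMM it was 6 in NPCs (8.45%), 0 in cluster 13 (0.584%), 2 in committed OPCs (10.7%) and 0 in VSMCs (2.24%). It was then 3 in Cajal-Retzius neurons (5.56%) and 1 in ASTs (1.19%), and the change of *Cyc1* in CPECs became 0.34. That scaling moved the median of all genes to 0.22 in OPCs, 0.26 in NPCs, 0.36 in CPECs and 0.38 in OLGs. Without the filter the count was 20 in NPCs (7.04%), 0 in cluster 13 (0%), 9 in committed OPCs (5.57%), 0 in VSMCs (1.46%) and 29 in OLGs (18.5%). It was then 15 in ASTs (2.47%), 8 in Cajal-Retzius neurons (2.44%), 3 in ECs (8.14%) and 1 in microglia (11.4%). With 200 genes per barcode it was 0 in committed OPCs (0.231%), 0 in VSMCs (0.9%), 2 in GLUTNs (2.23%) and 5 in Cajal-Retzius neurons (4.7%). With doublets removed it was 0 in committed OPCs (2.71%), 21 in OLGs (12.5%), 6 in ASTs (3.06%) and 2 in microglia (21.6%). Of the 2 in microglia 1, *Atp5k*, was higher. At Leiden resolution 2.0 it was 0 in committed OPCs (0%), 2 in NPCs (2.43%), 18 in GLUTNs (6.92%) and 1 in ASTs (0.761%). The cause of these changes was not tested. Clusters 13 and 19 got no value with 200 genes per barcode, with doublets removed or at resolution 2.0, nor dividing cells under the first pair of these.

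Leaving out a sham library gives a value with no test. The median of the members then lay between -1.17 and -1.07 in OPCs, -0.89 and -0.83 in CPECs, -1.81 and -0.98 in GLUTNs, -0.40 and 0.04 in macrophages and -0.19 and 0.01 in VLMCs. The comparison between classes called 0 members under each alternative run, and it was not run without a sham library, where no residual degrees of freedom are left. No paired analysis was possible because only 1 of the 2VO libraries was analysed. The 2VO library is the shallowest, and in Cajal-Retzius neurons, NPCs, GLUTNs, VLMCs, dividing cells and clusters 13 and 19 2VO values rest on 14 to 38 cells.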
